A study of Mus musculus with 5 samples.

Results

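The genes described here encode the nuclear-encoded subunits of the mitochondrial respiratory chain, grouped by complex. They were chosen by name: symbols that begin with Nduf and a subunit letter and number, with Uqcr or Atp5, or with Cox4 to Cox8 and a subunit letter, together with Sdha, Sdhb, Sdhc, Sdhd, Cyc1 and Cycs. This gave 83 of the 18193 genes on the array, of which 80 were bright enough to be tested among 11902 genes: 34 of complex I, 4 of complex II, 9 of complex III, 15 of complex IV, 17 of complex V and the carrier Cycs. A gene is represented by its brightest probe set, the group of short array probes that together report 1 transcript, and was tested when that probe set was brighter than the middle probe set of an array on 2 or more of the 5 arrays. The 3 genes left out were Cox7b2, at 2.80 on all 5 arrays, Ndufb4, at 2.67 to 3.47, and Cox7c, at 4.43 to 4.67. The dimmest genes that were tested were Cox6b2, at 4.87 to 4.93, and Cox4i2, at 5.05 to 5.30.

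RNA of whole hearts, taken after bleeding and saline perfusion, was measured on Affymetrix Mouse Genome 430 2.0 arrays in 5 untreated female mice. The 3 NZB_W mice, aged 12 to 15 weeks, are first-generation hybrids of the NZB and NZW strains, which develop a spontaneous lupus-like autoimmune disease, and they had lupus nephritis with moderate kidney injury by Austin scoring. The 2 NZW mice, of the parental strain, were healthy and matched for age. The submitters describe a pilot for finding candidate genes of cardiac change, so the comparison is NZB_W against NZW. Strain cannot be told apart from disease, since each group has its own of both. Titles call the arrays biological replicates.

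Complexes I and II pass electrons from NADH and succinate to ubiquinone, complex III passes them on to cytochrome c, and complex IV hands them to oxygen. Complexes I, III and IV pump protons out of the mitochondrial matrix, and complex V, the ATP synthase, uses their return to make ATP. Heart muscle draws most of its ATP from this chain, and the subunit transcripts are among its most abundant messages. The few subunits encoded by mitochondrial DNA were not analysed here. The nuclear genes are known to respond to the transcription factors NRF1, GABP (an ETS family factor), YY1 and the oestrogen-related receptors, with the coactivator PGC-1alpha, the product of Ppargc1a.

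Promoter windows from 250 bases before to 50 bases after the gene start (RefSeq, GRCm38.p6) were at hand for 64 of the 80 genes, and 4 are printed so that a match to the recognition letters of each of these factors can be seen in place, in genes of complexes I, II and V described below. Capitals mark the letters matched, either as spelled or as their reverse complement: for NRF1 GCGCA and GCGC with any base between them, for GABP CCGGAAG, for YY1 AAGATGGC and for the oestrogen-related receptors CAAGGTCA. The searched motifs were marked in each window, and no 2 matches overlap in these windows. The windows lie at chr4:123718137-123718436 on the minus strand for Ndufs5, chr9:44920693-44920992 on the minus strand for Atp5l, chr9:50603800-50604099 on the minus strand for Sdhd and chr10:80249199-80249498 on the plus strand for Ndufs7. Each runs 5′ to 3′ on its gene's strand.
Ndufs5: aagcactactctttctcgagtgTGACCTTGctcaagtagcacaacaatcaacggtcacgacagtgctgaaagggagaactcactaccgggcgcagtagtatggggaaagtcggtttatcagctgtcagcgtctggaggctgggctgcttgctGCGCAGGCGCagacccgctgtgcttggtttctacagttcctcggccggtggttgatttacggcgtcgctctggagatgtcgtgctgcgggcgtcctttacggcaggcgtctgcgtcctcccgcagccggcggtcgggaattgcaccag
Atp5l: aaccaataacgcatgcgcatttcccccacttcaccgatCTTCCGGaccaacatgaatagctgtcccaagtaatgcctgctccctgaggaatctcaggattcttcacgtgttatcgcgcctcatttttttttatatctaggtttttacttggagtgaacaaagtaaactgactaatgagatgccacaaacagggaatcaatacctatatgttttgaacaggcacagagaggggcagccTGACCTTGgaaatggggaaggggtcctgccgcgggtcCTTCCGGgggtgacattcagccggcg
Sdhd: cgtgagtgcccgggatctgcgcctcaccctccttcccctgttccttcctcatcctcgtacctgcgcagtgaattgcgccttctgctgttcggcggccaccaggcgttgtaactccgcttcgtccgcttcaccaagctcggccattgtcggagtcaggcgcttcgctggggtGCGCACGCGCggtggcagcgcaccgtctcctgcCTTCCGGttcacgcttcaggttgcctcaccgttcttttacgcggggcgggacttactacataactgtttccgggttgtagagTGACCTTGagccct
Ndufs7: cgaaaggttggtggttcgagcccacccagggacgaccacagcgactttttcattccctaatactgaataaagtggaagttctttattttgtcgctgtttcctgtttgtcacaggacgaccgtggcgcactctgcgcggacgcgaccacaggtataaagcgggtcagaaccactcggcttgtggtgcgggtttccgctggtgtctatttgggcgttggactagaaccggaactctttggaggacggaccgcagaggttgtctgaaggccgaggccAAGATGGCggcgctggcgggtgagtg

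In these windows the NRF1 letters of Ndufs5 begin at -98 and those of Sdhd at -79, counted in bases from the gene start, while the YY1 letters of Ndufs7 begin at 24. The NRF1 letters were in 14 of the 64 subunit windows (21.9%), against 11.1% of the 9565 tested genes with a window. The GABP letters were in 17 (26.6%, against 19.2%), the YY1 letters in 9 (14.1%, against 5.25%) and the letters of the oestrogen-related receptors in 4 (6.25%, against 1.42%). At least 1 of the 4 motifs was found in 35 of the 64 windows. A match describes the letters and is not a binding site.

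The array files show 5 columns with nearly equal medians, from 4.62 to 4.68 on NZB_W arrays and 4.62 to 4.64 on NZW arrays. Correlations between arrays over all tested genes ran from 0.972 to 0.993, and the lowest were those of NZB_W array 3. Control probe sets set apart NZB_W array 3 and NZW array 2. The beta-actin control read lower at its 5′ end than at its 3′ end by a log2 difference of -1.31 for NZB_W array 3 and -1.19 for NZW array 2, where the others had -0.88 to -0.89. The 18S ribosomal RNA probe set for the 5′ end read 12.7 on NZW array 2 and 9.97 to 10.5 on the others. These are called the doubted arrays, and the summaries of the subunits are given with and without them.

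With all 5 arrays most subunits of every complex read slightly lower in NZB_W hearts, and no single subunit passed the test. The log2 difference, NZB_W minus NZW, was below 0 for 68 of 80 subunits and above 0 for 12, where 54.5% of all tested genes were below 0. Its median was -0.059, which is 1.04-fold lower, beside -0.014 over all genes. The extremes were Ndufs5 at -0.23 (1.18-fold lower) and Ndufa4l2 at 0.15 (1.11-fold higher). Without NZB_W array 3 the median was -0.020 with 50 of 80 lower, and without both doubted arrays it was -0.0017 with 44 lower. Complex II then had 1 of 4 lower without NZB_W array 3, and complex IV 7 of 15 without both. In whole-heart RNA, fewer cells of a type and less RNA per cell cannot be told apart.

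At an adjusted p under 0.05 (limma, Benjamini-Hochberg over all 11902 genes) 0 of 80 subunits were called, where 0.0084% of all genes, a single gene, were. At an unadjusted p under 0.05, 0 of 80 were called, where 3.03% of all genes were called lower and 2.51% higher, 5.55% in all. The smallest adjusted p of a subunit was 0.859. The groups did not overlap in 18 subunits, all lower in NZB_W, against 9.83% of all genes without overlap on that side, and in 0 subunits on the higher side, against 7.6%. These 18 were 10 subunits of complex I, 1 of complex II, 2 of complex III, 3 of complex IV and 2 of complex V.

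The median SE was 0.077 log2 units for the subunits and 0.107 over all genes. By each gene's brightest probe set, the 95% interval of the difference excluded a 1.5-fold decrease in 79 of 80 subunits. The exception was Ndufs4 with an interval from -0.74 to 0.38. The interval excluded a 1.3-fold decrease in 67. A difference of 1.1-fold or more on the lower side was measured in 10 subunits. Dimmer probe sets were not counted. On those of Uqcr10, described below, the interval ran from -1.85 to -0.94 (1434340_at) and from -1.52 to -0.79 (1434341_x_at).

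**Figure D1:**
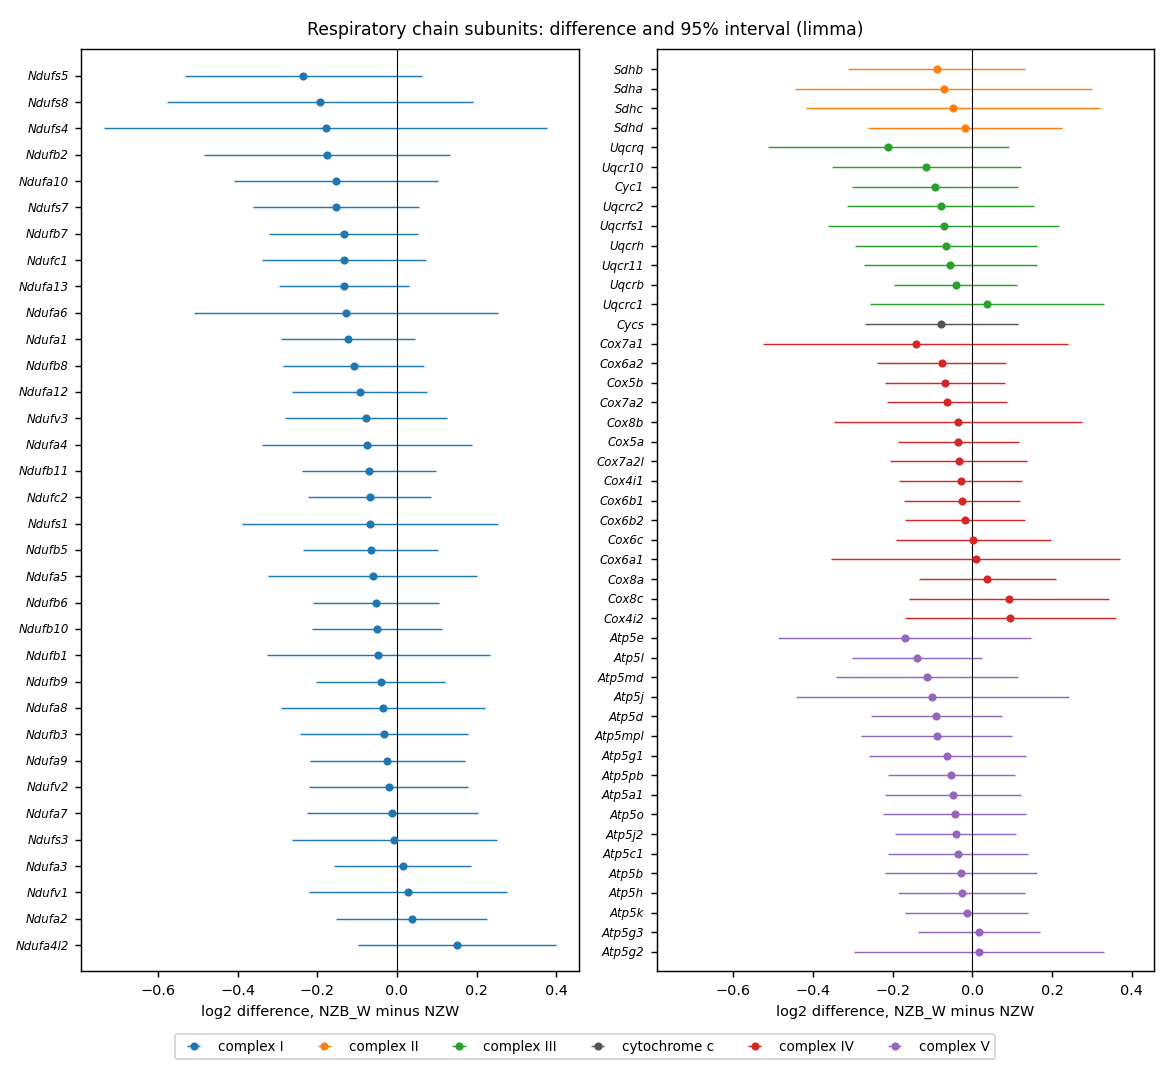
Log2 difference, NZB_W minus NZW (x axis), of the 80 tested subunits (y axis), with complex I on the left and the other complexes on the right; points are limma estimates from 3 NZB_W and 2 NZW arrays and lines are 95% intervals. Most points lie left of 0, between -0.23 for Ndufs5 and 0.15 for Ndufa4l2, and every interval crosses 0.

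Other genes of like brightness read closer to 0. Among genes with a mean log2 level of at least 12, the 61 subunits had a median difference of -0.067 with 56 lower, and the 143 other genes had a median of -0.013 with 76 lower. In that range 16 of 61 subunits and 9 of 143 other genes were lower without overlap, while 0 subunits and 20 other genes were higher without overlap. Without both doubted arrays the medians in that range were -0.015 for the subunits, with 39 of 61 lower, and 0.0051 for the other genes, with 61 of 143 lower.

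Complex I, the NADH dehydrogenase, is the largest complex. Its median difference was -0.068, with 30 of 34 subunits lower, and leaving out both NZB_W array 3 and NZW array 2 brought it to -0.0012 with 18 lower. Ndufs5, an accessory subunit, had log2 values of 10.92, 10.92 and 10.63 on the NZB_W arrays, against 11.02 and 11.09 on the NZW arrays. The groups did not overlap, and the difference was -0.23 (SE 0.11, adjusted p = 0.859). NZB_W array 3 was the lowest array, and without it the difference was -0.14.

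Ndufa13, an accessory subunit also known as GRIM-19, read 12.960, 13.054 and 13.002 in NZB_W hearts, against 13.117 and 13.161 in NZW hearts. All 3 NZB_W values lay below both NZW values, a difference of -0.13 (SE 0.062, adjusted p = 0.859). Without both doubted arrays it was -0.11. Ndufs7, the core subunit that carries the iron-sulfur cluster next to ubiquinone, read 12.64, 12.68 and 12.55 in NZB_W hearts, against 12.71 and 12.85 in NZW hearts. Here NZB_W array 3 was lowest and NZW array 2 highest, and the difference of -0.15 (SE 0.080, adjusted p = 0.859) was -0.044 without both. For Ndufa1, a small membrane-arm accessory subunit encoded on the X chromosome, the values were 12.78, 12.84 and 12.75 in NZB_W hearts, against 12.88 and 12.95 in NZW hearts. The groups did not overlap, at a difference of -0.12 (SE 0.064, adjusted p = 0.859) and -0.065 without both arrays.

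Outside the rule for named genes, and chosen after their values were seen, Ndufs4 and Ndufs8 had the widest gaps between NZB_W array 3 and the other NZB_W arrays. Ndufs4, an accessory subunit whose loss destabilises complex I in mice, read 10.68, 10.77 and 10.14 in NZB_W hearts, against 10.68 and 10.74 in NZW hearts. NZB_W array 3 was 0.59 log2 units below the mean of the other NZB_W arrays and the difference of -0.18 became 0.017 without it. The dimmer Ndufs4 probe sets did not overlap between groups, and on them NZB_W arrays 1 and 2 also lay below both NZW arrays. Probe set 1418117_at read 6.95, 7.18 and 6.34 in NZB_W hearts, against 7.25 and 7.39 in NZW hearts (-0.50), and 1438166_x_at read 8.92, 8.94 and 8.82 in NZB_W hearts, against 8.98 and 9.14 in NZW hearts (-0.17). Ndufs8, a core iron-sulfur subunit, read 12.46, 12.50 and 12.09 in NZB_W hearts, against 12.59 and 12.50 in NZW hearts. The groups overlapped only by a near tie of NZB_W array 2 and NZW array 2. The difference was -0.19 (SE 0.15, adjusted p = 0.859), with -0.064 without NZB_W array 3 and -0.11 without both doubted arrays.

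In complex II, succinate dehydrogenase, the lower readings went with NZB_W array 3. All 4 subunits were lower, with a median difference of -0.060, and without that array 1 of 4 was lower and the median was 0.052. Sdha, the flavoprotein that oxidises succinate, read 12.45, 12.44 and 12.07 in NZB_W hearts, against 12.44 and 12.35 in NZW hearts. NZB_W arrays 1 and 2 were level with NZW array 1, and array 3 stood alone below the rest. Its difference of -0.072 (SE 0.14, adjusted p = 0.930) became 0.052 without NZB_W array 3.

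Sdhb, the iron-sulfur subunit, was the member of complex II without overlap, at 13.36, 13.38 and 13.18 in NZB_W hearts, against 13.39 and 13.41 in NZW hearts. Its difference was -0.090 (SE 0.085, adjusted p = 0.863), and without NZB_W array 3 it was -0.027. The membrane anchors overlapped between groups. Sdhc read 11.46, 11.52 and 11.18 in NZB_W hearts, against 11.55 and 11.31 in NZW hearts, a difference of -0.048 that was 0.056 without NZB_W array 3. Sdhd, whose promoter holds NRF1, GABP and oestrogen-related receptor letters, read 11.79, 11.78 and 11.57 in NZB_W hearts, against 11.76 and 11.70 in NZW hearts. Its difference of -0.019 was smaller than its SE of 0.093, and it was 0.052 without NZB_W array 3.

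Complex III, the cytochrome bc1 complex, had a median difference close to that of complex I, at -0.072, with 8 of 9 subunits lower, and it was -0.023 with 5 lower without both doubted arrays. Uqcrq, a small accessory subunit at the membrane, read 12.15, 12.23 and 11.91 in NZB_W hearts, against 12.29 and 12.33 in NZW hearts. The groups did not overlap, at a difference of -0.21 (1.16-fold lower, SE 0.12, adjusted p = 0.859) and -0.099 without both. Uqcr10, another small accessory subunit, read 12.11, 12.14 and 11.92 in NZB_W hearts, against 12.18 and 12.16 in NZW hearts by its brightest probe set. The groups did not overlap there, at a difference of -0.12 (SE 0.090, adjusted p = 0.859), which was -0.047 without NZB_W array 3.

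Cyc1, cytochrome c1, which hands electrons to cytochrome c, read 12.88, 12.93 and 12.75 in NZB_W hearts, against 12.98 and 12.92 in NZW hearts. Uqcrc2, a core protein on the matrix side, read 12.94, 12.97 and 12.75 in NZB_W hearts, against 12.97 and 12.95 in NZW hearts. In both genes NZB_W array 3 alone lay clearly below the others, and the differences were -0.094 (SE 0.080) for Cyc1 and -0.080 (SE 0.090) for Uqcrc2, with -0.042 and -0.012 without that array. Cycs, the mobile carrier cytochrome c, read 13.43, 13.37 and 13.26 in NZB_W hearts, against 13.45 and 13.42 in NZW hearts. The groups overlapped, at -0.078 (SE 0.073, adjusted p = 0.863), and -0.034 without NZB_W array 3.

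Complex IV, cytochrome c oxidase, had the median nearest 0 of the 5 complexes, at -0.030 with 10 of 15 subunits lower, and 0.00013 with 7 lower without both doubted arrays. Cox6a2, the heart and skeletal muscle form of subunit VIa, read 13.42, 13.47 and 13.37 in NZB_W hearts, against 13.49 and 13.50 in NZW hearts. Cox5b, a nuclear-encoded subunit on the matrix side, read 13.69, 13.73 and 13.73 in NZB_W hearts, against 13.76 and 13.81 in NZW hearts. Neither overlapped between groups, and both differences were small, at -0.078 (SE 0.062) for Cox6a2 and -0.069 (SE 0.058) for Cox5b, each with an adjusted p of 0.859. Cox7a2, the form of subunit VIIa found in most tissues, read 13.29, 13.31 and 13.26 in NZB_W hearts, against 13.33 and 13.37 in NZW hearts, with no overlap at a difference of -0.063. Cox7a1, the heart and skeletal muscle form, read 12.54, 12.64 and 12.21 in NZB_W hearts, against 12.61 and 12.59 in NZW hearts. NZB_W array 3 stood alone below the rest, and the difference of -0.14 (SE 0.15) was -0.014 without it.

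Several subunits have paired forms, and the balance within pairs was compared array by array, as the difference between groups in the first form minus that in the second. In complex IV these were Cox4i1 with Cox4i2, a form known from lung and from low oxygen (-0.13), Cox6a2 with Cox6a1 (-0.086), Cox6b1 with the testis form Cox6b2 (-0.0063), Cox7a1 with Cox7a2 (-0.079) and Cox8b with Cox8a (-0.073). Of the muscle forms, Cox8b read 13.04, 13.14 and 12.82 in NZB_W hearts, against 12.96 and 13.11 in NZW hearts, so the groups overlapped. The balance overlapped between groups in all 5 of these pairs. Cox4i2, at 5.05 to 5.30, and Cox6b2, at 4.87 to 4.93, were the dimmest subunits tested. The balances of their pairs thus set a bright form against one little above the array medians.

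Ndufa4, counted here by its name although its protein sits in complex IV, read 12.63, 12.67 and 12.41 in NZB_W hearts, against 12.64 and 12.65 in NZW hearts. Its paralog Ndufa4l2, known as a target of hypoxia signalling, read 6.99, 6.88 and 6.88 in NZB_W hearts, against 6.88 and 6.65 in NZW hearts. The balance of Ndufa4 against Ndufa4l2 was -0.23 and overlapped between groups. NZW array 2 was the low one for Ndufa4l2, so the difference of 0.15 (SE 0.095) was 0.038 without it. Cox6a1 shows the opposite use of arrays, at 11.54, 11.58 and 11.86 in NZB_W hearts, against 11.53 and 11.78 in NZW hearts. There the doubted arrays NZB_W 3 and NZW 2 were both high, and the groups overlapped.

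Complex V, the ATP synthase, had a median difference of -0.049 with 15 of 17 subunits lower, and -0.0044 with 11 lower without both doubted arrays. Atp5l, subunit g of the membrane sector, had the smallest p of all subunits. It read 12.41, 12.48 and 12.38 in NZB_W hearts, against 12.56 and 12.56 in NZW hearts. The groups did not overlap, at a difference of -0.14 (SE 0.062, adjusted p = 0.859), and without both doubted arrays it was -0.12, the lowest of the 80 subunits. Atp5d, the delta subunit of the rotating central stalk, read 12.81, 12.91 and 12.90 in NZB_W hearts, against 12.96 and 12.97 in NZW hearts. This pair of groups did not overlap either, at -0.091 (SE 0.063), and here NZB_W array 1 was lowest.

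Atp5e, the epsilon subunit of the same stalk, read 12.27, 12.37 and 12.02 in NZB_W hearts, against 12.37 and 12.41 in NZW hearts. Atp5md, a small membrane-sector subunit, read 12.08, 12.15 and 12.01 in NZB_W hearts, against 12.10 and 12.29 in NZW hearts. Both overlapped between groups, at -0.17 (SE 0.12) for Atp5e and -0.11 (SE 0.087) for Atp5md, and NZW array 2 alone was high for Atp5md. Without both doubted arrays the differences were -0.045 for Atp5e and 0.012 for Atp5md. Atp5g1, Atp5g2 and Atp5g3 encode the same mature c subunit of the proton-driven ring, with differences of -0.063, 0.016 and 0.016. The balance of Atp5g1 against Atp5g3 was lower in NZB_W hearts without overlap, at -0.079, and that of Atp5g1 against Atp5g2 overlapped.

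The subunits also differed between arrays within each group. Set against each gene's mean over the 5 arrays, the median subunit lay at 0.00099, 0.030 and -0.088 on NZB_W arrays 1, 2 and 3, against 0.020 and 0.046 on NZW arrays 1 and 2. NZB_W arrays 1 and 2 thus straddled NZW array 1, and NZB_W array 3 was the low one. It was the lowest of the 5 arrays in 57 of 80 subunits, where it was lowest in 25.6% of all genes. NZW array 2 was the highest in 32 of 80, against 22.6% of all genes, and both held in 18, against 7.91%.

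NZB_W array 3 lay below the mean of the other NZB_W arrays in 66 of 80 subunits (82.5%), against 43.8% of all genes, and by over 0.1 log2 units in 41, against 26.95% of all genes. The median gap between NZB_W array 3 and the other NZB_W arrays was -0.098 in complex I, -0.26 in complex II, -0.21 in complex III, -0.054 in complex IV and -0.097 in complex V. NZW array 2 was more than 0.1 above NZW array 1 in 15 of 80 subunits, a smaller share than the 26.11% of all genes, and 29 subunits showed neither gap.

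**Figure D2:**
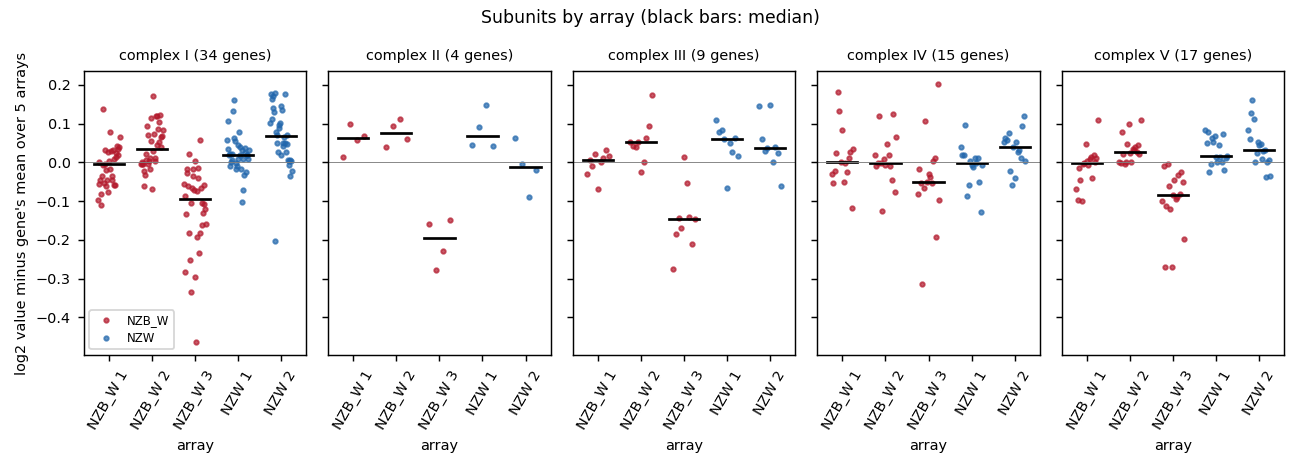
Log2 value minus the gene's mean over 5 arrays (y axis) on each array (x axis), 1 panel per complex; each point is a subunit, red for NZB_W and blue for NZW, and black bars are medians. NZB_W array 3 is the lowest median in each complex, while NZB_W arrays 1 and 2 lie near the NZW arrays.

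The 50 of 80 subunits that were lower without NZB_W array 3 stand beside 56.5% of all genes. Without NZW array 2 the median was -0.045 with 66 lower, against 53.6%, and the 44 lower without both stand beside 54.6%. The last share, 55% of the subunits, is close to that of all genes. In that comparison of 2 NZB_W arrays with 1 NZW array, 72 of 80 subunits lay within 0.1 log2 units of 0, against 6736 of all 11902 genes. The 5 subunits below -0.1 were Atp5l, Ndufb2, Ndufa13, Ndufs8 and Ndufs5, and the 3 above 0.1 were Cox8c, Cox8b and Ndufv1, which are named after their values were seen. Of all genes 26.2% lay below -0.1 and 17.2% above 0.1. These shares are not matched for brightness. The median level was 12.5 for the subunits and 7.17 for all genes, and with all 5 arrays the median SE was 0.077 against 0.107.

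**Figure D3:**
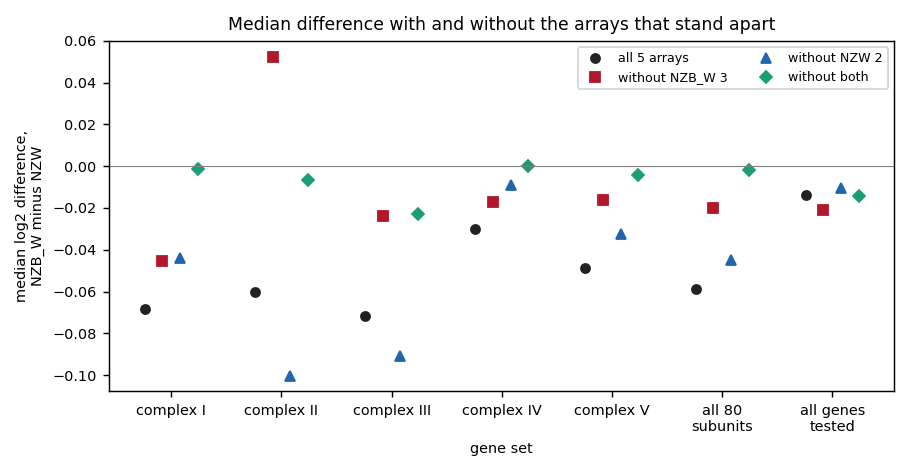
Median log2 difference, NZB_W minus NZW (y axis), of the subunits of each complex, all 80 subunits and all tested genes (x axis), with all 5 arrays and without NZB_W array 3, NZW array 2 or both. The median of all 80 subunits is -0.059 with 5 arrays and -0.0017 without both, and complex II lies at 0.052 without NZB_W array 3.

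Many subunits have further probe sets, which measure the same gene with other probes. Above the same brightness filter there were 71 such probe sets over 45 subunits, and 63 had the sign of the main probe set and 8 the opposite one. Of the 71, 62 were lower in NZB_W hearts, with a median difference of -0.077, where 54.4% of 22820 probe sets on the array were lower. Probe sets of a gene share the same 5 RNA samples, so they repeat the arrays' pattern. In the fit over all probe sets, 5 were called at an adjusted p under 0.05 and 0 of them belonged to subunits.

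Uqcr10 differed strongly between its probe sets. Probe set 1434340_at read 6.94, 7.40 and 6.92 in NZB_W hearts, against 8.51 and 8.46 in NZW hearts, a difference of -1.40 (SE 0.17, adjusted p = 0.330). Probe set 1434341_x_at read 7.12, 7.49 and 7.23 in NZB_W hearts, against 8.35 and 8.52 in NZW hearts, a difference of -1.16 (SE 0.14, adjusted p = 0.324). On neither did a doubted array stand out, and the brightest probe set of Uqcr10, 1424364_a_at, gave -0.12. The 2 dim probe sets and the bright one thus disagree on the size of the difference, and what each probe set matches was not tested.

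Ndufv1, the core subunit that binds NADH and flavin, disagreed the other way and was picked out after its values were seen. Its probe set 1415966_a_at read 12.16, 12.28 and 11.95 in NZB_W hearts, against 11.58 and 11.74 in NZW hearts, a difference of 0.47 (SE 0.12, adjusted p = 0.774). Its other probe sets gave 0.027 and -0.014, with overlap. For Ndufs8 all 6 probe sets were lower, from -0.19 to -0.13, and 4 of them did not overlap between groups. No Ndufs8 probe set passed the test.

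**Figure D4:**
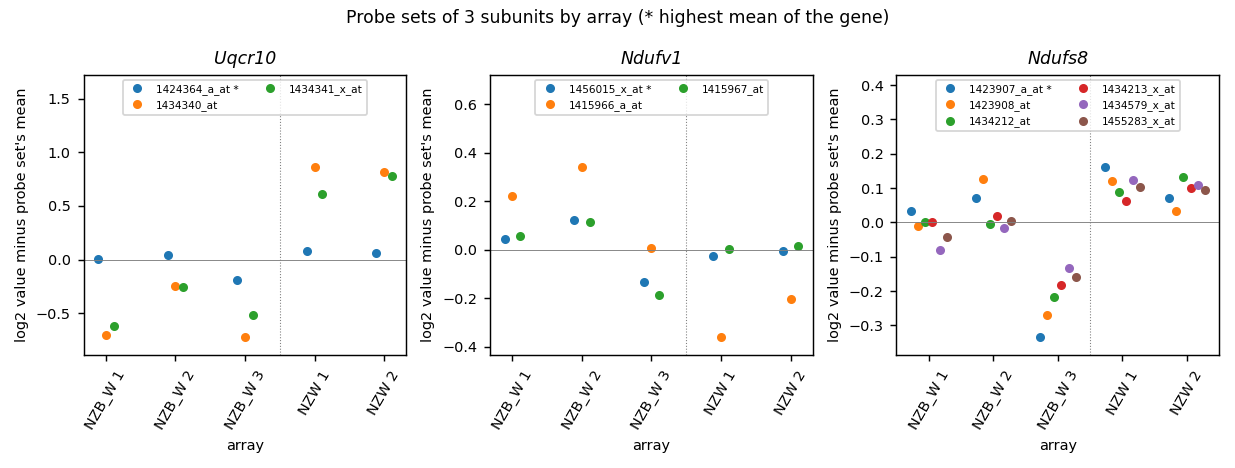
Log2 value minus the probe set's mean over 5 arrays (y axis) on each array (x axis) for the probe sets of Uqcr10, Ndufv1 and Ndufs8; each point is 1 probe set on 1 array and the dotted line parts NZB_W from NZW. In Uqcr10 2 probe sets differ by -1.40 and -1.16 and the third by -0.12, while the 6 probe sets of Ndufs8 keep together.

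Genes that build, feed and regulate the chain were described from lists. Beside each count stand the shares over all genes given above, 54.5% lower, 9.83% lower without overlap and 7.6% higher without overlap. Of 45 tested assembly factors, 37 were lower in NZB_W hearts, 10 of them without overlap, and the median difference was -0.15. Cox18, which inserts a complex IV subunit into the inner membrane, read 7.30, 7.59 and 7.46 in NZB_W hearts, against 7.81 and 7.96 in NZW hearts, a difference of -0.43 (SE 0.11, adjusted p = 0.765). Uqcc2, an assembly factor of complex III, read 10.86, 10.96 and 10.82 in NZB_W hearts, against 11.05 and 11.23 in NZW hearts, a difference of -0.26 (SE 0.088) that was -0.14 without both doubted arrays. Neither overlapped and neither passed. The list's median was -0.046 without both doubted arrays.

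Regulators of mitochondrial biogenesis had a median of -0.14, with 18 of 24 lower, 11 without overlap, and 1 higher without overlap, which was Sirt3 at 0.38. Ppara, the nuclear receptor that drives fatty acid oxidation genes in heart, read 9.20, 9.64 and 9.15 in NZB_W hearts, against 9.97 and 9.97 in NZW hearts, a difference of -0.64 (1.56-fold lower, SE 0.17, adjusted p = 0.786). Polrmt, the mitochondrial RNA polymerase, read 8.68, 8.75 and 8.55 in NZB_W hearts, against 8.89 and 8.97 in NZW hearts, a difference of -0.27 (SE 0.085, adjusted p = 0.859). Of the factors whose letters were searched in the promoters, Gabpa, which encodes the DNA-binding part of GABP, read 9.10, 9.09 and 8.79 in NZB_W hearts, against 9.21 and 9.22 in NZW hearts. Nrf1, at 5.37 to 5.48 on NZB_W arrays and 5.48 on NZW arrays, was dim, and Nrf1, Yy1 and Esrra overlapped. Ppargc1a, the gene of PGC-1alpha, read 9.97, 10.04 and 9.73 in NZB_W hearts, against 10.37 and 10.09 in NZW hearts, a difference of -0.32 (SE 0.14, adjusted p = 0.859). Sirt3, Gabpa, Nrf1, Yy1, Esrra and Ppargc1a are named after their values were seen. The median of the 24 was -0.067 without both doubted arrays.

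The subunits with the NRF1 letters had a median difference of -0.031 (10 of 14 lower), and those without them -0.069 (47 of 50 lower). With the GABP letters it was -0.056 (15 of 17 lower) and without them -0.063 (42 of 47). With the YY1 letters it was -0.10 (8 of 9 lower) and without them -0.063 (49 of 55). With the letters of the oestrogen-related receptors it was -0.079 (3 of 4 lower) and without them -0.063 (54 of 60). These medians are descriptions with no test. Among the genes printed above, Ndufs7 carries the YY1 letters and Sdhd, at -0.019, carries 3 of the 4 motifs.

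In the tricarboxylic acid cycle 10 of 13 genes were lower, 2 without overlap, with a median of -0.095. Idh3b, a subunit of isocitrate dehydrogenase, read 11.64, 11.70 and 11.51 in NZB_W hearts, against 11.71 and 11.87 in NZW hearts, a difference of -0.18 that was -0.046 without both doubted arrays. Fh1, fumarase, read 12.11, 12.16 and 11.92 in NZB_W hearts, against 12.15 and 12.26 in NZW hearts, a difference of -0.15 that was -0.021 without both. Among genes of electron entry, shuttles and ATP exchange 21 of 28 were lower, 4 without overlap, and 2 were higher without overlap, Atpif1 and Vdac2, a mitochondrial outer membrane channel at 0.020 that is named after its value was seen. The median was -0.10. There Coq2, an enzyme of ubiquinone synthesis, had -0.32, which was -0.17 without both, and Atpif1, the inhibitor protein of the ATP synthase, had 0.24, with 10.94, 10.73 and 10.89 in NZB_W hearts, against 10.51 and 10.72 in NZW hearts. Among genes of inner membrane organisation and protein import 20 of 27 were lower, 7 without overlap, with a median of -0.071. Tomm70a, an import receptor, had -0.20 and Yme1l1, an inner membrane protease, had -0.17, both of them -0.11 without both doubted arrays. Of complex subunits whose symbols fall outside the naming pattern 2 were tested, Ndufab1 at -0.095 and Dmac2l at -0.14, both with overlap. No gene of any of these 6 lists passed an adjusted p of 0.05. Without both doubted arrays the medians were -0.0066 for the cycle, 0.015 for electron entry, -0.010 for the inner membrane and 0.039 for the further subunits.

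Markers of other cell types also differed between the arrays. All 15 cardiomyocyte markers were bright enough to be tested, and 8 were higher and 7 lower in NZB_W hearts, with a median difference of 0.0088. Their summed linear level was 178867 to 191624 on NZB_W arrays and 177707 to 190370 on NZW arrays. The atrial light chain Myl7 read 3.87, 10.24 and 13.01 in NZB_W hearts, against 13.14 and 4.76 in NZW hearts, so the signal of this atrial gene differed widely within both groups. Nppa, like Myl7 a part of that sum, read 13.31, 13.16 and 13.96 in NZB_W hearts, against 13.70 and 12.77 in NZW hearts. The sum was highest on NZB_W array 3 and NZW array 1, where Myl7 and Nppa were each highest within their group. Macrophage markers were higher in 12 of 12, with a median difference of 0.61, and none passed the adjusted test. Their summed level was 4920 to 8548 on NZB_W arrays and 3291 to 4558 on NZW arrays, and the highest was NZB_W array 3 and the lowest NZW array 2. The macrophage median was 0.18 without both doubted arrays. Among these markers Itgam read 3.69 and 3.77 in NZW hearts, dimmer than the array medians. It was tested only through its NZB_W values, which favours a higher reading, so its direction is no support.

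Smooth muscle and pericyte markers were higher in 8 of 8 (median 0.20, and 0.0099 without both doubted arrays), with summed levels of 8785 to 12315 on NZB_W arrays and 8168 to 8869 on NZW arrays. Endothelial markers were higher in 7 of 10 (median 0.062, sums of 4612 to 5502 against 4628 to 4703), and fibroblast markers in 5 of 9 (median 0.072, sums of 11756 to 22750 against 14027 to 15487). Without both doubted arrays the endothelial median was -0.013 and the fibroblast median -0.46, so both turned sign. In each of these 3 lists NZB_W array 3 had the highest sum. The 3 tested red blood cell genes were higher (median 2.19, and 1.65 without both). Of these, Slc4a1 read 4.30 and 3.93 in NZW hearts, dimmer than the array medians. It was tested only through its NZB_W values, which favours a higher reading, so its direction is no support. The sum over the 6 red blood cell genes on the array, tested or not, was 477 to 1916 on NZB_W arrays, against 334 to 364 on NZW arrays. Adipocyte markers were lower in 3 of 5, B and plasma cell markers were higher in 3 of 3, and T and NK cell markers were split, 1 higher and 1 lower of 2. Of the 4 tested skeletal muscle markers, Pvalb (-0.15) and Tnni2 (-0.099) were lower, and Atp2a1 read 5.57 on all 5 arrays. Acta1 was higher (1.05) and by far the brightest of the 4, with means of 12.3 in NZB_W and 11.3 in NZW hearts. The sums of these 4 lists also cover listed genes on the array that were too dim to be tested. For 8 adipocyte genes the sum was 7453 to 9124 on NZB_W arrays and 7338 to 7735 on NZW arrays. For 10 skeletal muscle genes it was 3937 to 8259 and 2533 to 2821, and on every array Acta1 made up most of it. For 6 B and plasma cell genes it was 378 to 482 and 209 to 332, and for 6 T and NK cell genes 166 to 193 and 167 to 170. The arrays on which the median of all 80 subunits was lowest and highest are thus also those on which macrophage markers were highest and lowest. In complexes II and III NZW array 2 was not the highest. It lay at -0.012 and 0.037 there, below NZW array 1 at 0.068 and 0.059. The part of cell composition, of atrial tissue and of RNA quality in the subunit values was not tested.

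**Figure D5:**
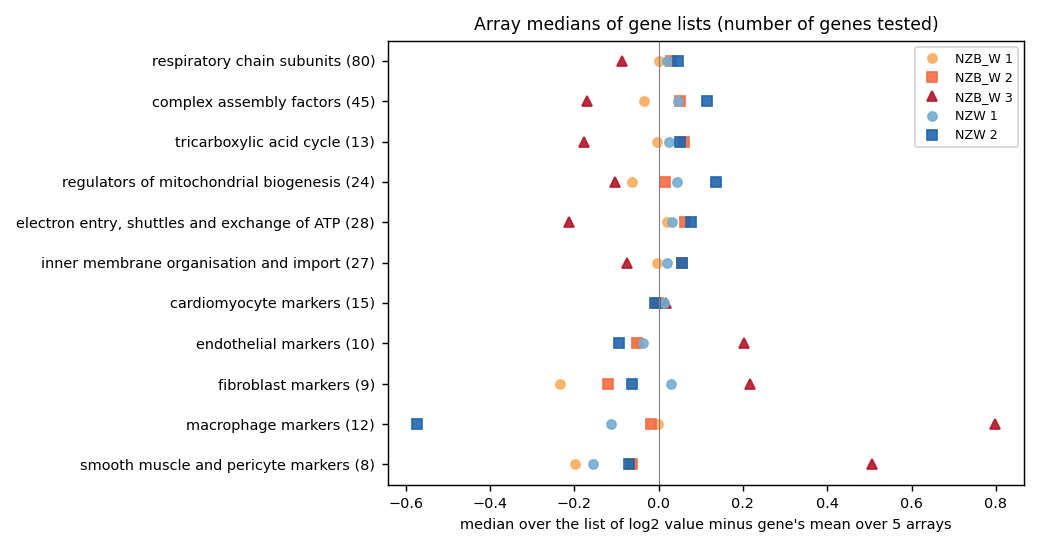
Median over each list of the log2 value minus the gene's mean over 5 arrays (x axis), for 11 gene lists (y axis, number of tested genes in brackets), with 1 symbol per array. On NZB_W array 3 the subunits lie at -0.088 and the macrophage markers at 0.80, while the cardiomyocyte markers lie between -0.0083 and 0.017 on every array.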

How the data were processed

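RNA from 3 NZB_W and 2 NZW hearts was measured on 1-colour arrays. The deposited values are log2 expression levels per probe set. Per the submitters' processing notes RMA, GCRMA and Partek were used; their versions, and which of RMA and GCRMA made these values, are not given in the sources. The methods treat dim signals differently. No scanner files were read, so detection calls are lacking, and precision is limited by having 5 arrays.

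Of 45101 probe sets, 64 are Affymetrix controls, and of the rest 34945 carry 1 gene symbol, 932 several and 9160 none in the platform annotation. Symbols were matched through Entrez identifiers to RefSeq GRCm38.p6 (34741 probe sets, 0 names changed). Probe sets with several symbols, among them 9 that also name subunit genes such as Ndufa11, Ndufb4 and Ndufs6, were not used.

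The authors' log2 values entered limma 3.58.1 (lmFit and eBayes, two-sided, no covariates) in R 4.3.3 unchanged, with Benjamini-Hochberg adjustment over 11902 genes and a threshold of 0.05; the prior added 1.69 degrees of freedom to 3 residual ones. The fit was tested on simulated data. SE values are moderated standard errors, and folds and summed marker levels were computed after turning log2 values back to a linear scale. The 2 groups and replicate numbers come from the titles. Same-numbered arrays' deviations from their group means correlated at -0.26 and 0.10. With 2 NZW arrays the deviations of one mirror those of the other, so these values cannot show whether the numbers pair the mice.

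The subunits and lists were chosen with earlier results of these data known. Named genes are the 4 tested members of each complex with the smallest p, Cycs, paired forms, and the 2 genes of each pathway list with the smallest p; others are marked. Alternatives covered normalization, filter, choice of probe set, variance model, array weights, a replicate block and leaving out arrays. Figures were drawn with matplotlib 3.10.9.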

Additional observations from a re-analysis of the deposited data

How the results depend on the processing

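No subunit was called in any of the 15 alternatives. With the other probe sets of the named genes counted too, the smallest adjusted p (limma) was 0.324. It belonged to Uqcr10 probe set 1434341_x_at in the fit over all probe sets. Of the values of 45 named genes under the alternatives and on other probe sets, 643 kept their direction and side of the threshold and 43 reversed, in 14 genes. Leaving out NZB_W array 3 and NZW array 2 together moved the subunit median to -0.0017, with 44 subunits lower. The median of complex I moved to -0.0012 and that of complex IV to 0.00013. With any single array or both of these left out, the ranges were -0.083 to -0.0017, -0.10 to -0.0012 and -0.053 to 0.00013, with 44 to 73 lower. The subunit median was -0.020 with 50 lower without NZB_W array 3 alone, and -0.045 with 66 lower without NZW array 2 alone. Counted on the lower and higher side together, subunits without overlap numbered 20 to 46 when arrays were left out, where fewer arrays overlap less by construction. They numbered 8 of 61 when probe sets with an s, x or a suffix were left out, where fewer genes were tested. The share of all genes without overlap was not counted in these settings.

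With the replicate number as a block, the fit uses no information from NZB_W array 3, which has no partner, and the median was -0.020 with 50 lower and 0 called. The block reversed Sdha (0.052), Sdhc (0.056), Sdhd (0.052), Cox8b (0.054), Ndufa4 (0.0049), Cox6a1 (-0.091) and Dmac2l (0.043). Array weights reversed Sdha (0.021), Sdhc (0.046), Sdhd (0.033), Cox8b (0.059), Cox4i2 (-0.0020), Cox6a1 (-0.056) and Dmac2l (0.043). Median centring reversed Cox6a1 (-0.0050), and the mean of all probe sets Cox8a (-0.028). The other probe set, which is also the one without a suffix, reversed Cox6b1 (0.017) and Cox8a (-0.00074). Of several other Cox5b probe sets, the one without a suffix, 1436149_at, reversed Cox5b (0.0063) and was dim, at 4.52 to 4.79. The bright ones, 1416902_a_at, 1435613_x_at and 1454716_x_at, were lower in NZB_W hearts without overlap, at -0.089, -0.077 and -0.10. Leaving out arrays gave ranges across 0 for Sdha (-0.14 to 0.052), Sdhc (-0.17 to 0.071), Sdhd (-0.057 to 0.052), Atp5md (-0.21 to 0.012), Cox8b (-0.11 to 0.13), Ndufa4 (-0.13 to 0.010), Cox6a1 (-0.11 to 0.13), Atp5g2 (-0.035 to 0.12), Atp5g3 (-0.0025 to 0.043) and Dmac2l (-0.27 to 0.079). The causes of these changes were not tested.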
